A study of Caenorhabditis elegans with 4 samples.

Results

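Chromosome IV of the nematode Caenorhabditis elegans held 851 of the 6507 RNA polymerase II peaks listed for larvae at stage L3. They were chosen by their chromosome alone, so every listed peak of IV was kept, whatever its width or q value (a significance corrected for the number of candidate peaks). The study used chromatin immunoprecipitation with sequencing (ChIP-seq) on wild-type N2 hermaphrodites kept at 20 °C. The labels give formaldehyde at 2% for all samples and no other treatment for any group. There were 2 ChIP samples, made with the mouse monoclonal antibody 8WG16 against the C-terminal repeat of AMA-1, the polymerase's largest subunit, and 2 input samples of unprecipitated DNA. Whole larvae were used, so cell types were mixed. All values below come from 1 combined list of peaks, with coordinates on WormBase build WS180, and describe both replicates together. No read counts and no value per sample were used, so the depth is unknown and no spread between replicates can be given. Intervals below cover counting error only, except where the spread between blocks of the chromosome is named, and p-values measure that spread or counting error, not biological variation.

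RNA polymerase II transcribes protein-coding genes and many small RNA genes. In ChIP it is found both at promoters, where it loads and can pause, and along gene bodies. The antibody 8WG16 binds the heptapeptide repeat and favours its unphosphorylated form, which is most abundant near promoters. A wide peak can therefore be a long stretch of a heavily transcribed gene or several adjacent genes, while a short one can be a single promoter or a weak signal at the edge of detection. The autosomes of C. elegans have no single centromere. Their central parts are rich in widely expressed genes, while their arms recombine more and hold more repeats. Chromosome IV is also known for 21U-RNAs, the piRNAs of this species, whose many small loci lie in broad regions of this chromosome and are transcribed by RNA polymerase II in the germ line. No peak was assigned to a gene here.

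Chromosome IV carried 48.7 peaks per Mb (exact 95% Poisson interval 45.5 to 52.1) over 17.5 Mb, measured to the end of its last peak. Its peaks covered 1028 kb, or 5.88% of that length. Outside chromosome I, which alone held 3028 peaks, IV had the most peaks, with 24.5% of the 3479 on 20.6% of the length. The question was whether this density differed from that of the other chromosomes by more than blocks of a chromosome differ among themselves. Peak counts in 1 Mb blocks were compared in a quasi-Poisson regression over 100 blocks, 17 of them on IV. The regression treats neighbouring blocks as independent, which was not tested. Where neighbouring blocks are alike, its intervals are too narrow and its p-values too small. Blocks varied 7.82 times as much as independent counts would. The density on IV was 1.74 times that on V (95% interval 1.29 to 2.34; Benjamini-Hochberg adjusted p = 0.00107, two-sided, 5 comparisons, n = 17 blocks on IV). It was 1.41 times that on X (1.05 to 1.89; adjusted p = 0.0408, n = 17 blocks on IV) and 0.241 times that on I (0.194 to 0.300; adjusted p = 6.09e-22). Among the best 50% of peaks by q the ratio to I was 0.152. The ratio was 1.08 to II (0.813 to 1.45; adjusted p = 0.579, n = 17 blocks on IV) and 0.912 to III (0.688 to 1.21; adjusted p = 0.579). For these last pairs the intervals reach from below 1 to above it, so neither a higher nor a lower density on IV was shown. With peaks within 500 bp of each other merged, the ratio to X was 1.35 and missed the threshold of 0.05 (adjusted p = 0.0506, n = 17 blocks on IV).

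For peaks of at least 1 kb, IV held 316, or 18.1 per Mb (16.1 to 20.2). Per Mb, chromosome I held 20.7 such peaks, III 16.2, II 15.6, X 13.9 and V 10.5. In the same regression the density of these wide peaks on IV was 1.73 times that on V (1.32 to 2.27; adjusted p = 0.000572, n = 17 blocks on IV). It was 1.30 times that on X (1.000 to 1.69; adjusted p = 0.125, n = 17 blocks on IV), 1.19 times that on II (0.912 to 1.56; adjusted p = 0.326), 1.12 times that on III (0.855 to 1.46; adjusted p = 0.409) and 0.871 times that on I (0.681 to 1.11; adjusted p = 0.335). Of the 5 comparisons, that with V passed the threshold. Among the best 50% of peaks by q, those with X (1.403 times) and I (0.662 times) passed as well. With peaks within 500 bp merged the ratio to I was 0.561 and passed, and with a limit of 2 kb it turned to 1.29 and did not.

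The peaks were spread unevenly along IV. The 17 full blocks of 1 Mb held 48.6 ± 19.6 peaks (SD over blocks), with a median of 54 and a range of 13 to 77, and the variance over blocks was 7.90 times the mean. Blocks of X varied less, with a ratio of 4.19, and those of the other chromosomes had ratios from 7.46 on III to 10.03 on II. The 3 densest blocks of IV were neighbours: the block from 11 to 12 Mb held 77 peaks (exact Poisson 60.8 to 96.2), that from 10 to 11 Mb 75 (58.99 to 94.0) and that from 9 to 10 Mb 73 (57.2 to 91.8). The block from 11 to 12 Mb also had the most covered sequence, 100.8 kb, and 10 of the 84 peaks of 3200 bp or more. A further high block, chosen after its count was seen, lay on the left, at 1 to 2 Mb, with 68 peaks.

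**Figure D1:**
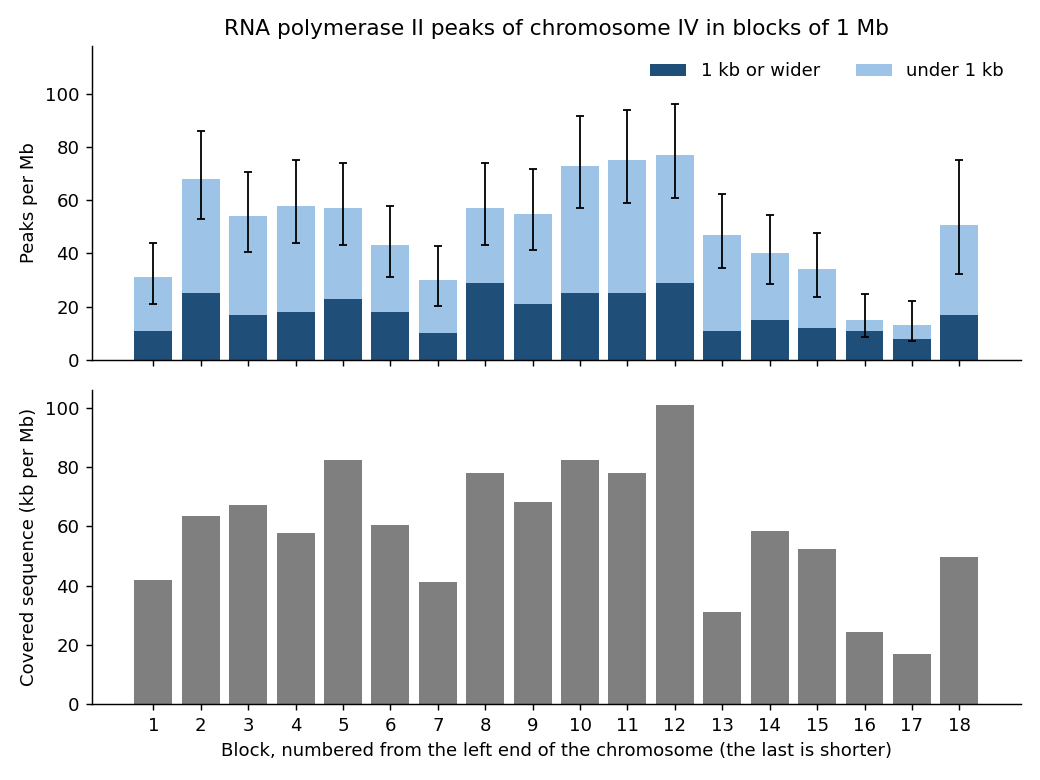
Peaks of chromosome IV in blocks of 1 Mb numbered from the left end (x axis). Upper panel, peaks per Mb (y axis), divided by peak width, with exact 95% Poisson intervals of the total as bars; lower panel, covered sequence in kb per Mb. Blocks 10 to 12 hold 73 to 77 peaks each, while blocks 16 and 17 hold 15 and 13.

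The 3 sparsest full blocks were those from 16 to 17 Mb with 13 peaks (6.92 to 22.2), from 15 to 16 Mb with 15 (8.40 to 24.7) and from 6 to 7 Mb with 30 (20.2 to 42.8). The outermost block on the left, from 0 to 1 Mb, held 31. The intervals of the blocks from 15 to 17 Mb lay wholly below those of the 3 densest. All of these blocks were picked by these same counts, so this describes the range and is not a test. The block from 16 to 17 Mb also had the least covered sequence, 16.9 kb. The block from 12 to 13 Mb, singled out after its values were seen, stood out in another way. It held 47 peaks, close to the mean, but only 31.0 kb of covered sequence, and 0 peaks of 3200 bp or more; its widest peak was 2865 bp. Across the 17 full blocks, Spearman's rho was 0.909 between all peaks and peaks of at least 1 kb, and 0.858 between peaks and covered sequence, as a description of blocks that share 1 list. Between the number of peaks and the share of wide ones rho was −0.27.

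At a scale of 100 kb, the chromosome held 174 full bins with a median of 4 peaks. Of these bins, 19 (10.9%) had no peak, 11 of them in the right part, 6 in the left and 2 in the centre. At the other end, 20 bins (11.5%) held 10 or more peaks, while such bins made up 9.21% of II, 16.1% of III, 1.92% of V and 2.27% of X. The fullest bin, IV:10900001-11000000, held 18. The densest 17 bins held 24.5% of the peaks of the chromosome, while a like share of bins held 18.6% on I, 26.8% on II, 24.2% on III, 29.4% on V and 25.8% on X.

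The chromosome was next divided into a left, a central and a right part, each 33.3% of its length or 5.82 Mb. The left part held 307 peaks, at 52.7 per Mb (47.0 to 58.9), the centre 349, at 59.9 (53.8 to 66.5), and the right part 195, at 33.5 (28.9 to 38.5). The interval of the right part lay below those of the other two, which overlapped each other. There were 1.57 times as many peaks on the left as on the right (exact binomial test, two-sided, p = 6.56e-07). This test counts peaks as independent, although block counts of IV varied 7.90 times as much as that, so its p is far too small. Whether left and right differ by more than the spread between blocks was not tested, and the p does not show it. Without the blocks from 15 to 17 Mb, picked after their counts were seen, the ratio of densities was 1.21 and missed the threshold (exact binomial p = 0.0541). The order of the parts differed between chromosomes. The left part of IV held more peaks than its right part, while on II the ratio of left to right was 0.409, on III 0.796, on X 0.890, on I 1.08 and on V 1.20. These ratios were not tested against each other.

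**Figure D2:**
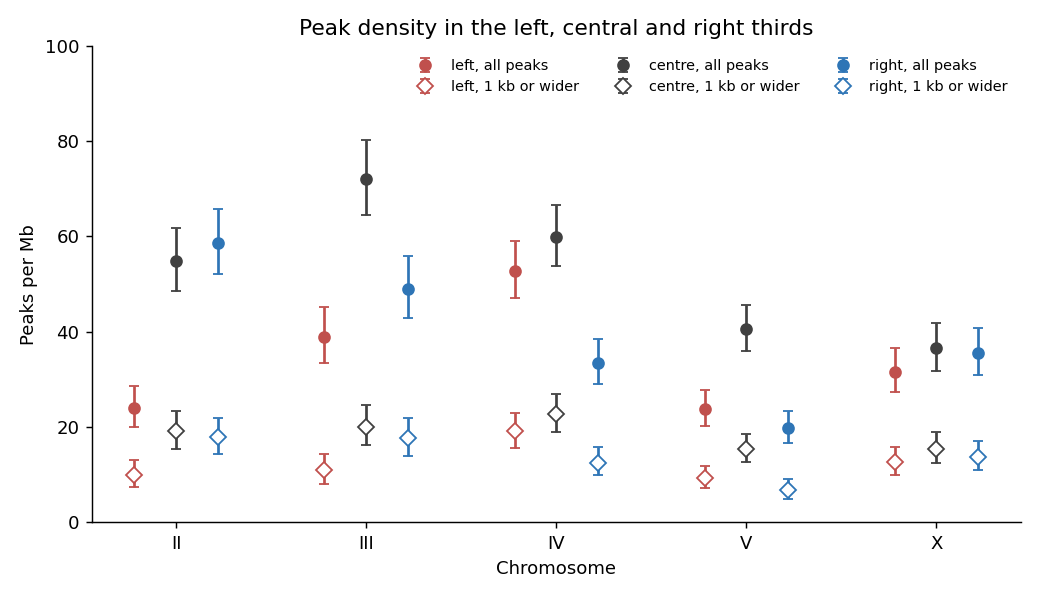
Peak density (peaks per Mb, y axis) in the left, central and right parts of chromosomes II, III, IV, V and X (x axis), each part being 33.3% of the length. Filled points are all peaks, open points those of at least 1 kb, and bars are exact 95% Poisson intervals; on IV the right part lies lowest in both, at 33.5 and 12.5.

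The lower density on the right was seen for narrow and wide peaks alike. Peaks under 1 kb numbered 33.6 per Mb on the left, 37.3 in the centre and 20.9 on the right. Peaks of at least 1 kb numbered 19.1 per Mb on the left (15.7 to 22.9), 22.7 in the centre (19.0 to 26.9) and 12.5 on the right (9.82 to 15.8). For wide peaks alone the ratio of left to right was 1.52 (exact binomial p = 0.00622). This p is too small as well, since wide peaks per block of IV varied 2.69 times as much as independent counts would. The ratio was not tested against that spread. By the 1 kb limit the mix of widths was similar in the 3 parts. Wide peaks made up 36.2% of peaks on the left (30.8 to 41.8), 37.8% in the centre (32.7 to 43.1) and 37.4% on the right (30.6 to 44.6). Median widths were 520, 624 and 616 bp. Covered sequence followed the counts, at 63.2, 72.7 and 40.6 kb per Mb. Peaks of 3200 bp or more numbered 32 of 307 on the left, 38 of 349 in the centre and 14 of 195 on the right. Their share was thus lowest on the right, a difference not tested. The wide peaks of the left part had the lower q values, with a median −log10 q of 22.4 (quartiles 8.12 and 46.9), against 13.5 in the centre (6.62 and 33.4) and 11.7 on the right (5.64 and 35.0). The quartile ranges of the 3 parts overlapped widely, and this difference was not tested. The wide peaks of the left part were also wider, with a median of 2336 bp against 2105.5 bp in the centre and 2067 bp on the right. The parts were not compared at matched width.

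Next, 2 windows of whole 1 Mb blocks were described, from 5 to 7 Mb and from 14 to 17 Mb. They were set from general knowledge of where 21U-RNA loci lie on IV, not from an annotation of WS180, so their limits are approximate. The blocks from 5 to 7 Mb held 73 peaks, at 36.5 per Mb (28.6 to 45.9), and those from 14 to 17 Mb held 62, at 20.7 per Mb (15.8 to 26.5). The remaining 12.5 Mb of IV held 716 peaks, at 57.4 per Mb (53.3 to 61.8). By counting error alone, both windows lay below the rest of the chromosome, and the right window below the left one. Blocks of IV varied 7.90 times as much as independent counts would, and the windows were not tested against that spread. The blocks from 5 to 6 and 6 to 7 Mb held 43 and 30 peaks, while that from 0 to 1 Mb, outside the windows, held 31. Within the right window the block from 14 to 15 Mb held 34 peaks (23.5 to 47.5), close to the density of the left window, while those from 15 to 16 and 16 to 17 Mb held 15 and 13. Covered sequence was 50.9 kb per Mb from 5 to 7 Mb, 31.2 from 14 to 17 Mb and 66.8 in the rest. Counting only peaks of at least 1 kb, the windows and the rest held 14 per Mb (9.30 to 20.2), 10.3 (7.02 to 14.7) and 20.6 (18.2 to 23.3), so the interval of the left window overlapped that of the rest. Of the 10 widest peaks of IV, 2 lay in each window, and of the 10 with the lowest q, 0 lay from 5 to 7 Mb and 1 from 14 to 17 Mb. Since the windows held 73 and 62 of all 851 peaks of IV, counts this small cannot tell them from the rest. The windows also differ from the rest in their place on the chromosome, and the part of the 21U-RNA loci in these counts was not tested.

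Widths on IV ran from 1 to 10422 bp, with a median of 596 bp and quartiles of 225 and 1622 bp. Peaks of at least 1 kb made up 37.1% (exact binomial 33.9 to 40.5) and held 81.5% of the covered sequence. In a quasi-binomial regression over the 1 Mb blocks, the odds that a peak was this wide were 1.36 times higher on IV than on III (1.07 to 1.73; adjusted p = 0.0290) and 5.16 times higher than on I (4.19 to 6.35; adjusted p = 2.25e-27). The odds ratio to I was 12.7 among the best 50% of peaks by q and 2.68 with peaks within 500 bp merged. The difference from III was sensitive to settings: it missed the threshold with a limit of 2 kb (1.11 times), among the best 50% of peaks by q (1.44), with peaks within 500 bp merged (1.32) and without chromosome I in the regression (1.36). In the same quasi-binomial regression the odds ratio was 1.16 for II (0.911 to 1.47; adjusted p = 0.362), 0.996 for V (0.778 to 1.28; adjusted p = 0.977) and 0.878 for X (0.689 to 1.12; adjusted p = 0.362). Among the best 50% by q the odds ratio to X was 0.518 and passed the threshold. The 1 kb limit fell between a peak of 997 bp, at IV:10910785-10911781, and one of 1002 bp, at IV:7717286-7718287.

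Divided into 7 width classes, IV held 92 peaks under 100 bp (10.8%), 96 of 100 to 199 bp (11.3%), 140 of 200 to 399 bp (16.5%) and 167 of 400 to 799 bp (19.6%). It held 137 of 800 to 1599 bp (16.1%), 135 of 1600 to 3199 bp (15.9%) and 84 of 3200 bp or more (9.87%). The 400 to 799 bp class was the fullest. The 84 widest made up 40.0% of the covered sequence, and the 92 shortest 0.394%. On II, III, V and X together, 15% of peaks were under 100 bp (13.6 to 16.4), and the lowest single value was 13.8% on X. The interval on IV, 8.80 to 13.1%, lay below the pooled one, a difference not tested against the spread between blocks. Taken singly, it lay below that of V (13.7 to 19.9) but overlapped those of X (11.1 to 16.8), III (11.7 to 16.9) and II (12.98 to 18.5). A single peak of IV was 1 bp wide, at IV:9696546-9696546, while II and X held 2 each, V 3, III 8 and I 21. Peaks of 3200 bp or more were not more frequent among the peaks of IV, at 9.87% (7.95 to 12.1) against 11.2% (10.04 to 12.5) on II, III, V and X.

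**Figure D3:**
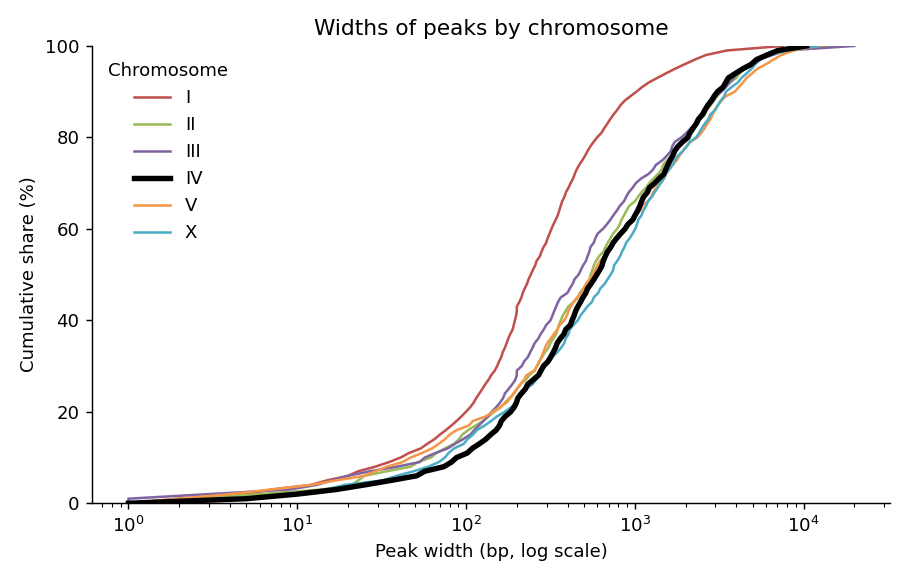
Cumulative share of peaks (%, y axis) up to a given width (bp, log scale, x axis) for each chromosome, with IV as the thick black line. The median on IV is 596 bp, against 242 bp on I and 465 to 720 bp on the others; at 100 bp the line of IV is the lowest, at 10.8%.

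The q values are the authors' own and serve only to order and describe the listed peaks. On IV they ran from 1.82e-300 to 0.00995, with a median −log10 q of 4.80 and quartiles of 2.90 and 12.1. Weak calls were common: 227 peaks of IV (26.7%) had a q above 0.001. The share was 24.5% on II, 25.7% on III, 28.3% on V and 31.8% on X, but 7.53% on I. At the other end, 30 of the 851 peaks of IV had a q below 1e-100, against 239 of the 6507 on the whole list. Of the 30, 12 lay on the left, 11 in the centre and 7 on the right. This was near the split of all peaks of IV, at 36.1, 41.0 and 22.9%. These 30 were 1735 to 10422 bp wide, with a median of 4324 bp, and held 13.8% of the covered sequence. Among the last 25% of the listed rows, IV held 308 of 1627 peaks, or 18.9% (17.05 to 20.9), while among the first 25% it held 11.1% (9.64 to 12.8). Of the peaks outside chromosome I alone, IV held 24.3% among the first 25% of rows and 24.3% among the last.

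Wider peaks of IV had lower q values. The median −log10 q was 3.02 under 100 bp, 2.91 at 100 to 199 bp, 3.31 at 200 to 399 bp, 4.37 at 400 to 799 bp, 6.52 at 800 to 1599 bp, 16.7 at 1600 to 3199 bp and 47.0 at 3200 bp or more. Over the 851 peaks, Spearman's rho of −log10 q with width was 0.662, a description across regions of 1 list. At matched width IV was close to II, III, V and X together, whose medians were 3.29, 3.04, 3.27, 4.22, 6.53, 16.2 and 48.8 in the same classes. On chromosome I the medians of these classes were higher throughout, from 4.08 to 192. The rise did not begin at the shortest widths. The 41 peaks of IV under 30 bp had a median −log10 q of 3.80, above the 3.02 of the 51 peaks of 30 to 99 bp and the 2.91 of the 100 to 199 bp class. The same order was seen on II, III, V and X together, at 3.92 for 170 peaks under 30 bp and 3.07 for 224 peaks of 30 to 99 bp. The limit of 30 bp was set after the values were seen, and these differences were not tested. Neighbouring peaks resembled each other little, with a rho of 0.0656 between their widths and 0.0861 between their −log10 q over 850 pairs.

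**Figure D4:**
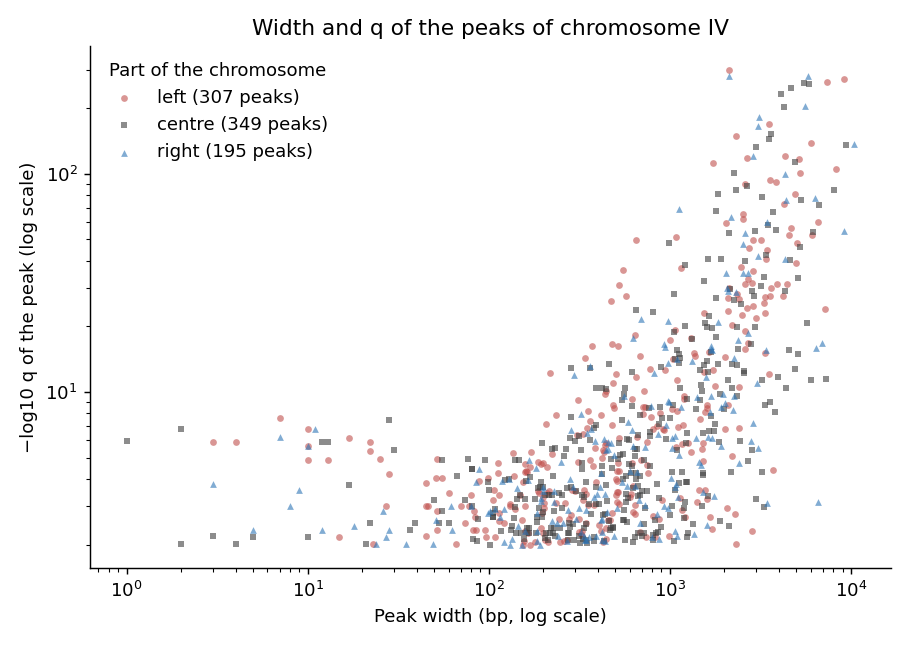
Width (bp, log scale, x axis) against −log10 q (log scale, y axis) for the 851 peaks of chromosome IV, with 1 point per peak and symbols for the left, central and right parts. The points of the 3 parts overlap over the whole range; values above 100 on the y axis begin at a width of 1735 bp.

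The 10 peaks of IV with the lowest q came from all 3 parts, 3 from the left, 4 from the centre and 3 from the right. The lowest, 1.82e-300, belonged to a peak of 2131 bp at IV:4235278-4237408, which followed its left neighbour after 419 bp. It was the narrowest of the 10, together with the third, at IV:14984829-14986959, of exactly the same width and with a q of 3.70e-281. No other peak of the list was 2131 bp wide. The latter lay apart, with 30197 bp to its left neighbour and 35757 bp to its right one. The second lowest q, 2.57e-282, was that of a peak of 5772 bp at IV:13077718-13083489, whose nearest neighbour was 12931 bp away.

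Next in order were the pair of the left part. The peak at IV:2599632-2608817 was 9186 bp wide with a q of 5.28e-271 and lay 33320 bp from its nearest neighbour. The peak at IV:2768035-2775415 was 7381 bp wide with a q of 5.62e-265 and had neighbours on both sides, after 910 and 491 bp. These 2 were the only peaks among both the 10 lowest q values and the 10 widest of IV. The centre then held the peaks at IV:7048689-7054211 (5523 bp), IV:11022363-11028253 (5891 bp), IV:9438494-9443158 (4665 bp) and IV:11080117-11084248 (4132 bp), with q values from 1.97e-261 to 2.85e-232. The first 3 of these had a neighbour within 204 to 369 bp. The tenth was at IV:11952337-11957922, of 5586 bp, with a q of 9.78e-205. Within the left part the series continued with IV:3231211-3234737 (3527 bp, q of 6.00e-170) and IV:761628-763944 (2317 bp, q of 3.36e-150). In the centre the next was IV:8429575-8433874 (4300 bp, q of 2.94e-203). On the right the next were IV:11819727-11822819 (3093 bp, q of 2.06e-183) and IV:14032274-14035346 (3073 bp, q of 7.58e-167).

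The 10 widest peaks of IV ranged from 6901 to 10422 bp and held 8.10% of its covered sequence. The widest lay at IV:14789292-14799713, with a q of 5.51e-137, and the second, of 9396 bp, at IV:7906411-7915806, with a q of 1.65e-135. Besides the pair named above, the others were at IV:14066876-14076028 (9153 bp), IV:4210579-4218875 (8297 bp), IV:10818268-10826378 (8111 bp), IV:6906120-6913363 (7244 bp), IV:5650601-5657767 (7167 bp) and IV:13887053-13893953 (6901 bp). Width did not go with a low q in each case. The peak of 7244 bp had a q of 3.35e-12, that of 6901 bp one of 1.87e-17 and that of 7167 bp one of 7.95e-25. Of the 84 peaks of 3200 bp or more, 20 had a −log10 q above 100 and 5 had one below 5. The weakest of these was 3311 bp wide, at IV:6327270-6330580, with a q of 0.00103, and another was 6549 bp wide, at IV:15037003-15043551, with a q of 0.000747. Conversely, 8 of the 328 peaks under 400 bp had a −log10 q above 10, up to 16.2 for a peak of 372 bp at IV:2725763-2726134. The peaks singled out in the last 2 sentences were chosen after their values were seen. The q values imply 103 ranks ahead of the first row, whose regions were not analysed here. The named peaks are therefore the strongest and widest of the list, not necessarily of the chromosome.

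Many peaks of IV lay in tight groups. Peaks separated by at most 1 kb were chained together. This placed 373 peaks (43.8%, 40.5 to 47.2) in 148 clusters and left 478 alone. On II and III the shares were 41.6 and 40.3%, on X 37.2%, on V 32.5% and on I 70.7%. The interval on IV lay above that on V and overlapped that on X (33.4 to 41.2). Clustered peaks come in groups by definition, so these intervals are too narrow. Peaks also lay denser on IV, at 48.7 per Mb, than on V, at 28.0, and the part of density in these shares was not tested. Of the clusters, 96 had 2 peaks, 35 had 3, 12 had 4, 3 had 5, 1 had 6 and 1 had 7. Counting each cluster as 1 unit, IV held 626 units, or 35.8 per Mb, while III held 40.4, II 34.1, X 27.2 and V 22.9. No gap in the whole list was shorter than 200 bp, and the shortest on IV was 202 bp.

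Clustered peaks of IV were wider than lone ones, with a median of 834 bp (quartiles 351 and 1921) against 445 bp (184 and 1454), and 44.8% against 31.2% were at least 1 kb wide; the quartile ranges overlapped and this difference was not tested. They held 49.4% of the covered sequence. The share of peaks with a neighbour within 1 kb was 25% under 100 bp (16.6 to 35.1) and 57.7% at 800 to 1599 bp (48.9 to 66.1), and was 50% for those of 3200 bp or more (38.9 to 61.1). Of the 148 clusters, 106 (71.6%) held a peak of at least 1 kb. The left part held 55 clusters, the centre 62 and the right part 31. Clusters of 3 or more peaks numbered 20, 21 and 11 in these parts, and 12 of the 52 began between 10 and 12 Mb. The parts held 36.1, 41.0 and 22.9% of all peaks of IV. The blocks from 10 to 11 and 11 to 12 Mb held 75 and 77 of the 851 peaks. Whether these counts of clusters exceed what the number of peaks alone would give was not tested. In the block from 10 to 11 Mb, 61.3% of peaks were clustered, the highest share of any block of IV, and in that from 16 to 17 Mb 15.4%, the lowest.

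The cluster with the most peaks, 7, spanned 12771 bp at IV:11592444-11605214. Its first member was 3532 bp wide with a q of 1.44e-145. From there −log10 q fell to 19.6, 9.56 and 5.50 in the next 3 members, stood at 5.50 and 6.65 in the following ones and ended at 2.13 in the last, which was 330 bp wide. The gaps inside it were 229 to 438 bp. The cluster of 6, at IV:6654588-6661885, spanned 7298 bp and had no strong member: −log10 q ran from 2.11 to 12.3 and was highest in the last. Clusters of 5 lay at IV:10917736-10927107, IV:10507553-10514212 and IV:10809602-10816328, with best −log10 q values of 19.8, 15.7 and 54.6. In the last of these the first member had the lowest q and −log10 q fell in each following one, down to 4.88. All 5 of these clusters lay in the centre. The longest cluster, of 3 peaks, spanned 14003 bp at IV:4395142-4409144 and was named for its length after its values were seen.

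Gaps between neighbouring peaks of IV had a median of 4594 bp, with quartiles of 859 and 23164 bp. On III and II the medians were 6074 and 6492 bp, and on X and V 10417 and 10932 bp. Of the 850 gaps of IV, 225 (26.5%) were at most 1 kb and 87 (10.2%) at most 300 bp. Gaps over 10 kb numbered 318 and took up 85.8% of the length. Gaps over 100 kb numbered 32 and took up 26.7%, near the 27.0% on II, above the 17.3% on III and below the 33.6% on X and the 43.6% on V. Of these 32, 19 had their middle in the right part, 10 in the left and 3 in the centre. The longest gap on IV, 240 kb, was shorter than the longest on II (747 kb), V (587 kb) and X (505 kb), and longer than that on III (195 kb).

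**Figure D5:**
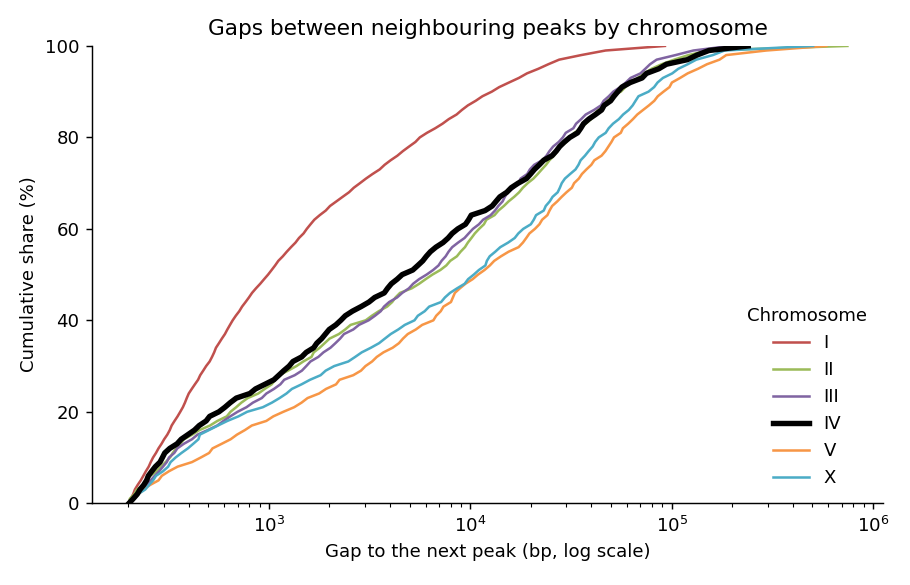
Cumulative share of gaps (%, y axis) up to a given length (bp, log scale, x axis) between neighbouring peaks of each chromosome, with IV as the thick black line. Gaps begin at 200 bp on the whole list; the median on IV is 4594 bp and its longest gap 240 kb.

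Of the 5 longest gaps, 4 lay between 15 and 17 Mb. They ran from 15932257 to 16172272 (240 kb), from 16173389 to 16404038 (231 kb), from 15050233 to 15271597 (221 kb) and from 15276104 to 15472416 (196 kb). The other one lay on the left, from 445238 to 653112 (208 kb). The 2 longest were separated by 1 peak of 1118 bp, at IV:16172272-16173389, with a q of 2.44e-69. The first peak of the chromosome began at 124116, was 877 bp wide and had a q of 0.00237. The last ended at 17474236, was 397 bp wide and had a q of 0.000401.

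The stretch from 15 to 17 Mb, singled out after its counts were seen, held 28 peaks, at 14 per Mb (9.30 to 20.2) against 53.2 (49.6 to 56.9) on the rest of IV. The shortfall was larger among narrow peaks than among wide ones, a contrast that was not tested. Peaks under 1 kb numbered 4.5 per Mb against 34.0, and peaks of at least 1 kb 9.5 against 19.2. Wide peaks therefore made up 67.9% of the stretch (19 of 28, exact binomial 47.6 to 84.1) and 36.1% of the rest (32.8 to 39.5), and the median widths were 1133 and 575 bp. The strongest peak of the stretch was 6299 bp wide, at IV:16487492-16493790, with a q of 6.85e-78, and followed 2 peaks of 1392 and 1487 bp. A second group lay at IV:15271597-15276104, with peaks of 1697 and 2533 bp and a best q of 1.23e-48, between gaps of 221 and 196 kb.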

How the data were processed

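ChIP and input libraries of 2 replicates each stand behind the data. The file analysed was 1 combined peak list deposited by the authors, with PeakSeq named as the caller in its rows and build WS180 in its header, per the file headers. Each row deposited by the authors gives a chromosome, start, end and q-value (a corrected p-value). No version, aligner or method of combining replicates is stated in the labels or the list. The labels' shared protocol text speaks of embryos and a serum against GFP; the labels of the samples (L3, 8WG16) were followed.

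Positions were read as 1-based and closed, and the width is end minus start plus 1. The end of the last peak served as the length of a chromosome, since no genome of the build was used. Peaks were assigned to blocks by their midpoint, and a last block under 0.5 Mb was left out of regressions. Quasi-Poisson and quasi-binomial regressions (statsmodels 0.14.6) used 1 dispersion for all blocks and 94 residual degrees of freedom. Both treated neighbouring blocks as independent. Intervals are exact 95% Poisson or Clopper-Pearson binomial intervals (scipy 1.17.1). The regressions were also run on simulated blocks, drawn independently of each other and, for counts, with 1 dispersion for all chromosomes. Such data cannot show the effect of resemblance between neighbouring blocks or of spreads that differ between chromosomes. The members, lists and tests were chosen with earlier results of these data known. Named peaks are the 10 with the lowest q, the 10 widest, the 5 lowest q in each part, the 5 largest clusters, the 5 longest gaps, both end peaks and those nearest the 1 kb limit, and named blocks the 3 densest and 3 sparsest. Others are said to be chosen after their values were seen. Alternatives were blocks of 500 kb, the best 50% by q, merging within 500 bp, leaving out chromosome I or the widest 1% of peaks, spans from the first peak, other width and gap limits and other divisions of the chromosome.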

Additional observations from a re-analysis of the deposited data

How the results depend on the processing

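No paired analysis was possible because the list holds no value per replicate, and for the same reason no replicate could be left out. The density of IV relative to V, I, II and III stayed on its side of the threshold under every alternative run. The ratio to I ran down to 0.152, among the best 50% by q. Against X it was 1.35 times (adjusted p = 0.0506, n = 17 blocks on IV) with peaks within 500 bp merged and passed otherwise, with ratios up to 1.63. For peaks of at least 1 kb, the ratio to I passed the threshold among the best 50% by q (0.662) and after merging (0.561), and was 1.29 at a limit of 2 kb, without passing; the ratio to X passed among the best 50% (1.403). The odds of a wide peak against III missed the threshold among the best 50% (1.44), after merging (1.32), without chromosome I in the fit (1.36) and at 2 kb (1.11), and against X passed among the best 50% (0.518). Against I they passed throughout, from 2.68 after merging to 12.7 among the best 50%. The ratio of left to right ran from 1.51 to 1.96 under the other alternatives, and was 1.21 without 15 to 17 Mb, a setting added after the data were seen, as was leaving out 14 to 17 Mb from the density of IV. The cause of these changes was not tested. The clustered share was 31.7% with gaps of at most 500 bp, 59.9% with 2 kb and 34.2% among the best 50%. The centre held 58.6% of peaks when taken as the middle 50%. Depth is unknown, and the 103 unlisted ranks limit statements on the strongest and widest peaks.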
